A study of Homo sapiens with 6 samples.

Results

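The 10 genes described here, DLK1, MEG3, MEG8, PEG3, PEG10, MEST, CDKN1C, NNAT, NDN and MAGEL2, are imprinted genes, most of them tied to growth, and were taken by symbol, leaving out IGF2. Of these, 9 had a row among the 28862 genes of the count table and 7 had enough reads to be among the 15829 genes tested. MEG3 and MEG8 fell below the filter on low counts, and MAGEL2 is not analysed here. The cells were SH-SY5Y, a human line grown from a neuroblastoma, a childhood tumour of the sympathetic lineage, so all 6 libraries come from 1 established line. The series compares 3 libraries labelled SMN1 overexpression with 3 libraries from cells given a control plasmid, all prepared from mRNA and sequenced in pairs of 150 nt. The labels name neither the promoter of the plasmid nor the time after transfection, and they do not say whether replicate libraries stem from independent cultures. The p-values then reflect only how far these libraries scatter, which may be technical. The level of SMN1 was lower in the libraries that carry its name, at 16 ± 1.08 CPM against 20.02 ± 0.432 CPM in the control libraries (SD, n = 3 each; log2 fold change -0.32, SE 0.0612, edgeR adjusted p = 9.40e-05). SMN2, a near-identical gene with which SMN1 can share reads, was also lower (7.627 ± 0.427 CPM against 9.405 ± 0.358 CPM; log2 fold change -0.30, edgeR adjusted p = 0.0031). The libraries with the SMN1 label are therefore called the SMN1-labelled libraries, and every direction is between libraries as labelled.

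An imprinted gene is read mainly from the copy inherited from 1 parent. The choice is written as DNA methylation on a control region in egg or sperm, and a control region often governs a cluster of neighbouring genes, some read from the paternal copy and others from the maternal copy. Many paternally expressed genes promote fetal growth, and several maternally expressed genes restrain it. By textbook knowledge 7 of the 10 genes are expressed from the paternal copy and 3 (MEG3, MEG8 and CDKN1C) from the maternal copy, and together they lie in 7 chromosomal domains. The counts do not separate the parental copies, so nothing here measures imprinting itself.

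Of the 7 genes tested, 4 rose in the SMN1-labelled libraries (DLK1, PEG3, PEG10 and MEST), 1 fell (NNAT), and CDKN1C and NDN did not pass the edgeR test at an adjusted p of 0.05. Across all genes tested, 56.2% passed, 28.0% as higher and 28.2% as lower, so a gene drawn from the table passes more often than not. Higher genes made up 49.8% of the calls on counts and 61.9 to 62.6% of those made on FPKM. In 5 of the 7 genes the values of the groups did not overlap, and this held for 60.7% of all genes tested. The median log2 fold change was 0.14 over the 7 genes and 0.001 over all genes tested. The rank of each fold change among all genes is therefore given beside its call. DLK1 had a larger fold change than 96.3% of the genes tested, MEST than 97.3%, PEG3 than 88.4% and PEG10 than 63.4%.

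**Figure D1:**
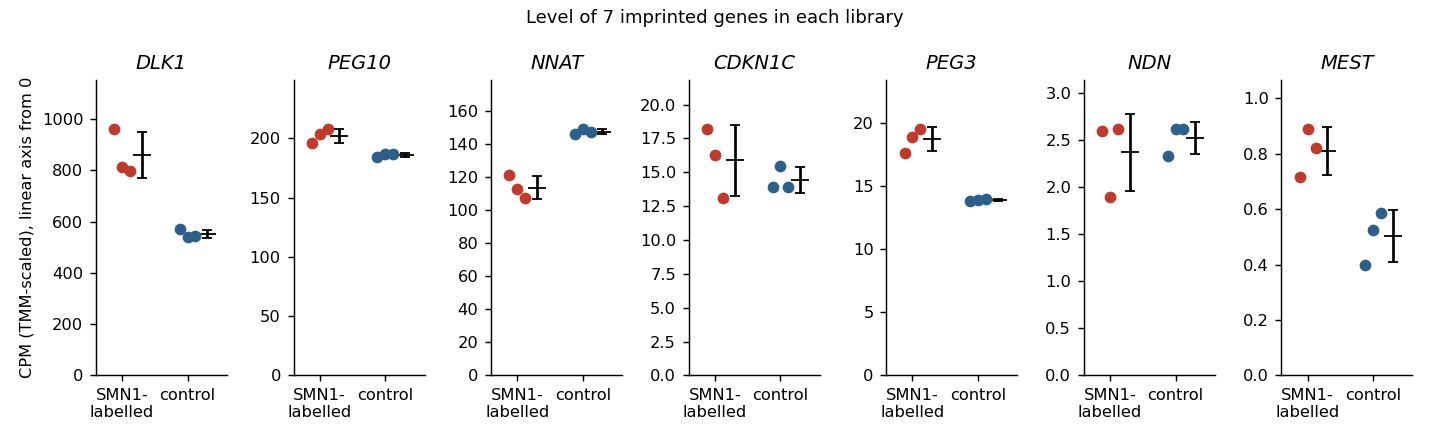
Level of the 7 tested genes in each library, in CPM after TMM scaling on linear axes that start at 0, with SMN1-labelled libraries in red and control libraries in blue. Horizontal bars are means and vertical bars are SD over n = 3. The groups are apart for DLK1, PEG10, NNAT, PEG3 and MEST and overlap for CDKN1C and NDN.

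Fold changes across the whole table followed gene composition. The log2 fold change fell with GC content (Spearman -0.433 across 15663 genes) and rose with exonic length (0.342), as a description across genes that are not independent replicates. The 7 genes are therefore given also from a fit with a smooth correction for length and GC content within each library. In that fit 48.9% of genes were called, 26.4% as higher and 22.5% as lower, and of the 7 genes 3 were higher (DLK1, PEG3 and CDKN1C) and 0 lower. Whether the trend arose in the cells or in the preparation of the libraries was not tested. The libraries held 30379242 to 40275498 reads assigned to genes, and 3 reads correspond to 0.0745 to 0.0988 CPM.

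Markers of cell state also differed between the groups, as did 56.2% of all genes tested, 28.0% as higher and 28.2% as lower. Of 11 adrenergic markers, 10 were tested, and of these 5 were higher and 5 lower. The summed level of the 11 was 33300 to 34600 CPM in SMN1-labelled libraries and 25900 to 27700 CPM in control libraries. With the length and GC correction 6 were higher and 0 lower, HAND2 among the higher ones. TH, the enzyme that defines catecholamine synthesis, was close to 0, with 2 reads over the SMN1-labelled libraries and 15 over the control libraries. Of 9 mesenchymal markers, 8 were tested, and of these 0 were higher and 6 lower. Together the 9 summed to 585 to 655 CPM in SMN1-labelled libraries, against 788 to 829 CPM in controls. TWIST1 makes up most of that sum, and the others summed to 46.9 to 49.2 CPM in SMN1-labelled libraries and 105 to 114 CPM in control libraries. With the correction 6 were again lower, PRRX1 now among them and TWIST1 not. The 6 Schwann or glial markers summed to 2.37 to 2.63 CPM against 3.80 to 5.34 CPM. Of these 3 were tested and 2 were lower, and CDH19 and SOX10 had no row. Haematopoietic markers were at most 0.388 CPM in sum, with CD68 at 0 reads in the SMN1-labelled libraries and 3 in the control libraries. The part of these differences in the results below was not tested, and in bulk RNA fewer cells of a type and less RNA per cell cannot be told apart.

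DLK1 had the lowest adjusted p of the 7 genes tested. It encodes a transmembrane protein with epidermal growth factor-like repeats, related to the Notch ligands, that is made by fetal tissues and by chromaffin-lineage cells and restrains differentiation in several lineages. DLK1 (ENSG00000185559.16) lies on the plus strand of chromosome 14 at 100725705 to 100738224 in GRCh38, and it stood at 961, 814 and 799 CPM in the SMN1-labelled libraries, against 571, 540 and 545 CPM in the control libraries. Every SMN1-labelled library was above every control library, and the spread was wider on the SMN1-labelled side, where replicate 1 stood apart from the other two. The means were 858.3 ± 89.5 CPM and 552.1 ± 16.7 CPM (SD, n = 3 each), a 1.55-fold increase (0.64 on the log2 scale, SE 0.0487, edgeR adjusted p = 1.12e-10). With the length and GC correction the log2 fold change was 0.73 (SE 0.0461, edgeR adjusted p = 2.18e-11). DLK1 passed in all 19 alternative analyses, with a log2 fold change of 0.55 to 0.73 and an adjusted p of at most 9.23e-04.

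The rest of the 14q32 domain was measured alongside DLK1. RTL1, a gene derived from a retrotransposon and needed for the capillaries of the placenta, is also read from the paternal copy and lies on the minus strand. In RPKM, here reads per kilobase of exon scaled to the total of each library, RTL1 stood at 185, 183 and 186 in the SMN1-labelled libraries and at 145, 146 and 143 in the control libraries. These values are as high as those of DLK1, which stood at 186, 158 and 156 against 105, 99.2 and 98.1 in RPKM. RTL1 rose (966.8 ± 8.85 CPM against 806.4 ± 3.06 CPM, SD, n = 3 each; log2 fold change 0.26 with SE 0.0313, edgeR adjusted p = 1.64e-07), and with the length and GC correction its log2 fold change was 0.39. The rise of DLK1 was the larger of the pair: their log2 FPKM ratio averaged -0.14 ± 0.141 in SMN1-labelled libraries and -0.51 ± 0.0487 in control libraries, with no overlap, a difference of 0.37. This ratio was added after the values had been seen and was not tested.

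The maternally expressed long RNAs of the same domain were almost absent. MEG3, a nuclear long non-coding RNA often called a tumour suppressor and silenced in many tumours, had 2, 1 and 3 reads in the SMN1-labelled libraries and 1, 1 and 0 reads in the control libraries. MEG8, the non-coding RNA downstream of it that hosts small nucleolar RNAs, had 1, 4 and 2 reads against 0, 0 and 0. Over 104680519 reads in the SMN1-labelled group and 92493369 in the control group, these are 6 against 2 reads for MEG3 and 7 against 0 for MEG8. Pooled by group, MEG3 stood at 0.00247 RPKM (95% Poisson interval 0.000906 to 0.00537) and 0.000931 (0.000113 to 0.00336), intervals that overlap. MEG8 stood at 0.00602 (0.00242 to 0.0124) in the SMN1-labelled group, and the 0 reads of the control group allow up to 0.00292 by the limit of 3 reads, which takes only the upper side. These intervals and limits cover counting error only, and both genes were too low to be tested for a difference between groups. MEG9, another maternal RNA of the domain, had 6 reads against 3. DLK1 and RTL1 were thus measured at over 100 RPKM in every SMN1-labelled library while the maternal RNAs beside them stayed below 0.03 in every library.

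**Figure D2:**
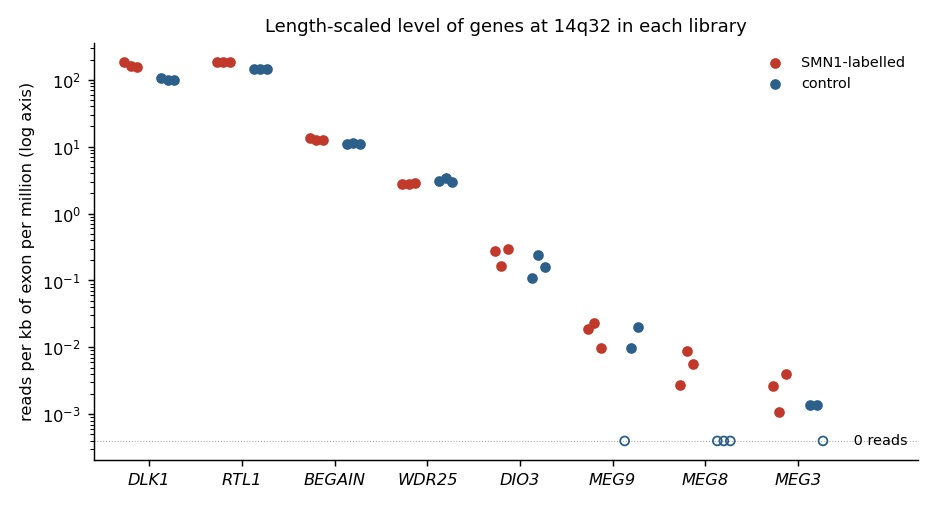
Length-scaled level of 8 genes of the 14q32 domain in each library, in RPKM on a log axis, with SMN1-labelled libraries in red to the left of control libraries in blue. Open circles on the dotted line are libraries with 0 reads, which have no place on a log axis. DLK1 and RTL1 lie near or above 100, and MEG9, MEG8 and MEG3 lie below 0.03.

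The start of MEG3 is a region where methylation of the paternal copy marks the imprint in body tissues. Its promoter is shown because these libraries hold next to no MEG3 while DLK1 and RTL1 of the same domain are abundant. RefSeq gives 3 overlapping starts with 17 to 19 CG sites, and the richest window is printed. It runs from 250 bases before the start to 50 after it, chr14:100825858-100826157 on the plus strand of GRCh38.p14, and the capitals mark its CG dinucleotides, the sites that can be methylated.
MEG3 promoter: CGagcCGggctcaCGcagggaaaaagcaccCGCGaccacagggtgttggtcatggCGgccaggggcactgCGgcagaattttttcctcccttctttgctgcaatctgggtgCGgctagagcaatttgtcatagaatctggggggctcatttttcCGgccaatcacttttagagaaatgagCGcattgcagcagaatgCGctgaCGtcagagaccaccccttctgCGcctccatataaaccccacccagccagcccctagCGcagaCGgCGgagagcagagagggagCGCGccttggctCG
The window holds 19 CG sites, against a median of 14 over 34943 RefSeq promoter windows of the same 300 bases. TGCCGC, the core letters bound by the imprint-keeping factor ZFP57, occurs 1 time on either strand, and 16.7% of all promoter windows hold it. Methylation was not measured, so these letters describe the sequence and not its state.

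The domain also carries microRNAs that are read from the maternal copy on the strand opposite RTL1. Their mature forms pair along their whole length with RTL1 RNA, and in mouse such pairing leads to cutting of the Rtl1 transcript. The 5 hairpins searched lie within RTL1 on the opposite strand. Full complementarity of all 10 mature forms to the annotated RTL1 transcript therefore follows from their position and is no separate result. No pair of the forms shared a seed. The forms below, from RefSeq (GRCh38.p14), are shown because they are the maternal partners of the abundant RTL1 RNA, with the seed, bases 2 to 8, in capitals.
hsa-miR-431-5p: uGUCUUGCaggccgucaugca
hsa-miR-433-3p: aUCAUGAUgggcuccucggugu
hsa-miR-127-3p: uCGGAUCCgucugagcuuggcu
hsa-miR-432-5p: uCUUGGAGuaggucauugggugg
hsa-miR-136-5p: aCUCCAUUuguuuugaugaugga
The 5 hairpin genes had 0 to 2 reads in a library, 9 reads in all over the SMN1-labelled libraries and 6 over the control libraries. A library made from mRNA does not capture mature microRNAs, so these counts describe longer transcripts across the hairpins only, and the rows were chosen after their values had been seen. No source used here gives the strand setting of the counting, so reads of RTL1 and of RNA from the opposite strand cannot be told apart.

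BEGAIN, which encodes a protein of the postsynaptic density, rose slightly (98.7 ± 2.94 CPM against 90.32 ± 0.488 CPM; log2 fold change 0.13, edgeR adjusted p = 0.00466; 0.26 with the length and GC correction). WDR25 fell (11.4 ± 0.274 CPM against 13.69 ± 1.03 CPM; log2 fold change -0.27, edgeR adjusted p = 0.00267) and after the length and GC correction no longer passed (-0.12, edgeR adjusted p = 0.168). DIO3, the enzyme that inactivates thyroid hormone at the far end of the domain, averaged 0.5041 ± 0.147 CPM against 0.3673 ± 0.147 CPM and did not pass (edgeR adjusted p = 0.333).

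PEG3 rose in every analysis. It encodes a large zinc-finger protein, read from the paternal copy in brain and placenta and linked in mice to fetal growth and maternal behaviour. PEG3 (ENSG00000198300.14; chromosome 19, 56810077 to 56840728, minus strand) stood at 17.6, 18.9 and 19.5 CPM in the SMN1-labelled libraries and at 13.8, 13.9 and 14 CPM in the control libraries. The groups did not overlap, and the control libraries were nearly identical. The means of 18.68 ± 0.944 CPM and 13.88 ± 0.0887 CPM gave a log2 fold change of 0.43 (SE 0.0619, edgeR adjusted p = 2.62e-06). The length and GC correction brought it to 0.22 (edgeR adjusted p = 0.00353), and PEG3 passed in all 19 alternatives.

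The neighbours of PEG3 at 19q13 did not move as a block. ZIM2, which shares its first exons with PEG3, was at 0.9607 ± 0.151 CPM against 1.015 ± 0.326 CPM and did not pass (edgeR adjusted p = 0.789). Reads in shared exons could have been split between the genes. The ratio of PEG3 to ZIM2 by FPKM was 4.86, 6.96 and 6.96 in the SMN1-labelled libraries. In the control libraries this ratio was 6.5, 3.36 and 4.16, so the ranges overlap, and it was not tested. The long RNA MIMT1 fell (1.702 ± 0.13 CPM against 2.562 ± 0.381 CPM; log2 fold change -0.58, edgeR adjusted p = 0.00379). ZNF264 rose (log2 fold change 0.46, edgeR adjusted p = 0.00183), as did ZNF71 (0.19, edgeR adjusted p = 0.00265), both zinc-finger genes, and the length and GC correction ended the call of ZNF264 (0.23, edgeR adjusted p = 0.124).

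PEG10, the more abundant of the 2 genes on chromosome 7, rose by less than any other gene that passed. It is a domesticated retrotransposon whose Gag-like protein forms capsids, and mice without it die early from a failed placenta. PEG10 (ENSG00000242265.6; chromosome 7, 94656325 to 94669695, plus strand) stood at 196, 204 and 208 CPM in the SMN1-labelled libraries, against 184, 187 and 187 CPM in the control libraries. Each SMN1-labelled library lay above the controls, though the lowest was not far from them. The means, 202.4 ± 6.03 CPM and 185.7 ± 1.66 CPM, differ 1.09-fold (log2 fold change 0.12, SE 0.0344, edgeR adjusted p = 0.00372). The direction turned with the length and GC correction (log2 fold change -0.05, SE 0.0311, edgeR adjusted p = 0.211), so its call holds only without that correction.

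SGCE, which encodes epsilon-sarcoglycan and shares its promoter region with PEG10 head to head, was at 14.05 ± 0.547 CPM against 14.18 ± 0.841 CPM (log2 fold change -0.01, edgeR adjusted p = 0.891), and with the length and GC correction it was called lower (-0.21, edgeR adjusted p = 0.0103). The ratio of PEG10 to SGCE by FPKM was 45.6, 43.5 and 45.9 in the SMN1-labelled libraries and 38.3, 40.8 and 44.1 in the control libraries. The ranges overlap. The mean log2 ratio was 5.492 ± 0.0426 in SMN1-labelled libraries and 5.357 ± 0.102 in control libraries, a difference of 0.135 that was not tested. Farther along 7q21, PPP1R9A, CASD1 and PON2 rose by 0.45, 0.43 and 0.35 on the log2 scale (edgeR adjusted p = 2.16e-05, 1.24e-04 and 1.04e-04). With the length and GC correction PPP1R9A was at 0.19 and PON2 at 0.28, while CASD1, at 0.21, no longer passed (edgeR adjusted p = 0.0509). TFPI2, a protease inhibitor imprinted in placenta, fell by 0.23 (edgeR adjusted p = 5.38e-05).

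MEST had the highest fold change of the 7 genes tested, from the fewest reads. It encodes an enzyme-like protein of the alpha/beta-hydrolase fold that is abundant in embryonic mesoderm and expanding fat tissue. MEST (ENSG00000106484.16; chromosome 7, 130486171 to 130506465, plus strand) had 24, 37 and 27 reads in the SMN1-labelled libraries and 12, 16 and 17 reads in the control libraries. In CPM these are 0.717, 0.889 and 0.821 against 0.4, 0.524 and 0.586, with no overlap between groups. The means of 0.8091 ± 0.087 CPM and 0.5032 ± 0.095 CPM gave a log2 fold change of 0.69 (SE 0.271, edgeR adjusted p = 0.0337). MEST passed in 9 of 16 alternatives: DESeq2 gave an adjusted p of 0.163 at a log2 fold change of 0.70, and the length and GC correction an edgeR adjusted p of 0.0658 at 0.61. The call was also lost without SMN1-labelled replicate 2 (edgeR adjusted p = 0.12) or replicate 3 (0.067), and without control replicate 1 (0.138) or replicate 2 (0.0638), at log2 fold changes of 0.55 to 0.72.

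A MEST start within the gene is shown because the imprint of MEST sits on a CG-rich promoter that is methylated on the maternal copy. Of the 5 RefSeq start windows of MEST, which hold 13 to 25 CG sites, the richest is printed, chr7:130491835-130492134 on the plus strand of GRCh38.p14, with its 25 CG sites in capitals and TGCCGC 3 times.
MEST promoter: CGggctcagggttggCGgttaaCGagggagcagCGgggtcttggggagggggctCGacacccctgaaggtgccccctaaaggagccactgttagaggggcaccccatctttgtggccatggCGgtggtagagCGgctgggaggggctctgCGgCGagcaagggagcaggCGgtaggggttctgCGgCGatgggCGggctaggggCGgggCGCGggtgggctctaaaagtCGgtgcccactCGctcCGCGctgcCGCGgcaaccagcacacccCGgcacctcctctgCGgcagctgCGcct
COPG2, the coatomer subunit gene that runs toward MEST from the other side, went the other way: it was at 20.21 ± 0.26 CPM against 24.3 ± 0.718 CPM (log2 fold change -0.27, edgeR adjusted p = 1.41e-04). The ratio of MEST to COPG2 by FPKM was 0.0321, 0.0381 and 0.0351 in the SMN1-labelled libraries and 0.0153, 0.0181 and 0.0206 in the control libraries, with no overlap. MEST FPKM values are rounded to 2 decimals in the deposited table, which at 0.08 to 0.18 FPKM makes this ratio coarse. CEP41, CPA4 and COPG2IT1 did not pass (edgeR adjusted p = 0.452, 0.408 and 0.67). CEP41 turned direction with the length and GC correction and was called lower (-0.15, edgeR adjusted p = 0.0426, against 0.06 without it).

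NNAT was the only one of the 7 genes that fell. It encodes neuronatin, a small proteolipid of the endoplasmic reticulum in neurons and endocrine cells that acts on calcium pumps. NNAT (ENSG00000053438.11; chromosome 20, 37521206 to 37523693, plus strand) stood at 121, 113 and 107 CPM in the SMN1-labelled libraries, against 146, 149 and 147 CPM in the control libraries. All SMN1-labelled libraries were below all control libraries, and the control libraries lay close together. The means of 113.5 ± 6.82 CPM and 147.4 ± 1.42 CPM amount to a 1.3-fold decrease (log2 fold change -0.38, SE 0.0395, edgeR adjusted p = 2.10e-08). NNAT has a GC content of 57.8% and 1332 bases of exon, and with the length and GC correction its log2 fold change was -0.02 (SE 0.0364, edgeR adjusted p = 0.636). Tested genes of 56.6 to 58.2% GC had a median log2 fold change of -0.13 and an interquartile range of -0.40 to 0.06, so the fall of NNAT lay inside that range.

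NNAT lies in an intron of BLCAP, a gene that is read from both copies in most tissues. BLCAP was at 17.93 ± 0.632 CPM against 17.5 ± 1.15 CPM and did not pass (log2 fold change 0.04, edgeR adjusted p = 0.645). The ratio of NNAT to BLCAP by FPKM was 38.5, 37.3 and 36.6 in the SMN1-labelled libraries and 51.9, 52.1 and 46.1 in the control libraries, with no overlap. BLCAP has a different length and composition, and with the length and GC correction it was lower in SMN1-labelled libraries (-0.16, edgeR adjusted p = 0.035).

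NDN passed in no analysis. It encodes necdin, a MAGE-family protein of postmitotic neurons that restrains cell division, and it is among the genes lost in Prader-Willi syndrome. NDN (ENSG00000182636.8; chromosome 15, 23685400 to 23687330, minus strand) stood at 2.6, 1.9 and 2.62 CPM in the SMN1-labelled libraries and at 2.33, 2.62 and 2.62 CPM in the control libraries. The groups overlap, and SMN1-labelled replicate 2 is the lowest of the 6 libraries. The log2 fold change was -0.11 (SE 0.155, edgeR adjusted p = 0.587) and none of the 19 alternatives called it, with an adjusted p of at least 0.398. At 70 to 87 reads per library a change of the size seen in PEG10 could not have been resolved here, since the SE of NDN is larger than that change.

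The NDN promoter is shown as the CG-richest window among the 10 windows that RefSeq gives for MEG3, MEST, NDN and MAGEL2. It spans chr15:23687256-23687555 on the minus strand of GRCh38.p14, with 35 CG sites in capitals, more than 85.9% of all promoter windows, and TGCCGC 1 time.
NDN promoter: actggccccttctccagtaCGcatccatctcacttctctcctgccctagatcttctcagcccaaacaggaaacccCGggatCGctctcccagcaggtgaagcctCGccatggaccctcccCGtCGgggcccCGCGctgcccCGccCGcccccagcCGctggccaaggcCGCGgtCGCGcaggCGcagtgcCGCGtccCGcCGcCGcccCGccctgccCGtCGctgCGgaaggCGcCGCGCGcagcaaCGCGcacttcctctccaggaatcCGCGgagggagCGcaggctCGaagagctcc
AANATGGC, the letters bound by YY1, was found on either strand in 6.57% of all promoter windows and in none of the windows of these genes. MAGEL2, the retromer-associated MAGE gene next to NDN, is not analysed here beyond its window, which holds 9 CG sites.

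Other genes of 15q11 did change. SNRPN, a paternally expressed gene for an Sm-family protein of brain spliceosomes, fell (72.85 ± 2.63 CPM against 86.8 ± 1.43 CPM; log2 fold change -0.25, edgeR adjusted p = 5.23e-06). SNRPN overlaps SNURF and SNHG14, so the split of reads among them is uncertain. UBE3A, the ubiquitin ligase lost in Angelman syndrome, rose (35.28 ± 1.13 CPM against 26.47 ± 0.595 CPM, log2 fold change 0.42, edgeR adjusted p = 7.46e-08). SNHG14 overlaps part of UBE3A on the opposite strand and was itself called higher (log2 fold change 0.22, edgeR adjusted p = 0.00924). After the length and GC correction SNHG14 did not pass (0.14, edgeR adjusted p = 0.101). As the strand setting is not known, reads of SNHG14 and UBE3A cannot be told apart where they overlap. With the length and GC correction the log2 fold changes of SNRPN and UBE3A shrank to -0.16 and 0.16, and both still passed. MKRN3, a paternally expressed inhibitor of puberty onset, was at 4.368 ± 0.277 CPM against 4.338 ± 0.425 CPM (log2 fold change 0.01, edgeR adjusted p = 0.936; -0.22 and 0.112 with the correction).

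CDKN1C is the growth-restraining gene of the set and the only tested gene read from the maternal copy. It encodes p57, an inhibitor of cyclin-dependent kinases whose loss causes Beckwith-Wiedemann overgrowth. CDKN1C (ENSG00000129757.15; chromosome 11, 2883213 to 2885773, minus strand) stood at 18.2, 16.3 and 13.1 CPM in the SMN1-labelled libraries and at 13.9, 15.5 and 13.9 CPM in the control libraries. SMN1-labelled replicates 1 and 2 were above every control and replicate 3 was below all of them, so the groups overlap. The means of 15.88 ± 2.60 CPM and 14.42 ± 0.957 CPM gave a log2 fold change of 0.14 that did not pass (SE 0.087, edgeR adjusted p = 0.175). Without SMN1-labelled replicate 3 it rose by 0.26 on the log2 scale (edgeR adjusted p = 0.00473), and without SMN1-labelled replicate 1 by 0.04. In the fit without the length and GC correction its call thus depended on which libraries were kept.

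With the length and GC correction CDKN1C did pass (log2 fold change 0.47, SE 0.0812, edgeR adjusted p = 4.84e-05). Its GC content of 63.8% is the highest of the 9 genes with a row, and tested genes of 61.6 to 64.0% GC had a median log2 fold change of -0.21, with an interquartile range of -0.46 to -0.02. CDKN1C lay above that range, as DLK1 did among genes of 54.9 to 56.6% GC, whose interquartile range was -0.40 to 0.05. PEG3, at 43.5% GC, lay just above its own range, which ended at 0.39. PEG10 lay close to the median of its range, which was 0.15.

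**Figure D3:**
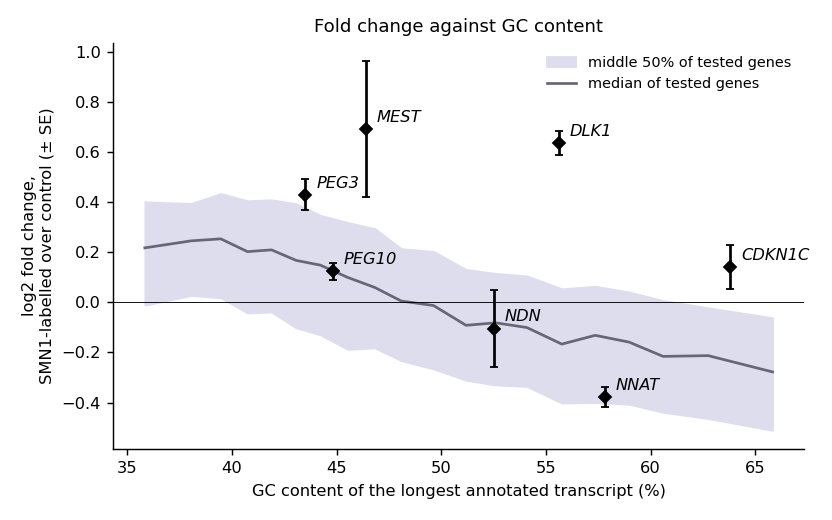
Log2 fold change, SMN1-labelled over control, against the GC content of the longest annotated transcript in percent. The line and band are the median and interquartile range of tested genes in 20 bins, and diamonds with SE bars are the 7 tested imprinted genes. DLK1, CDKN1C, PEG3 and MEST lie above the band, and PEG10, NDN and NNAT lie within it.

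**Figure D4:**
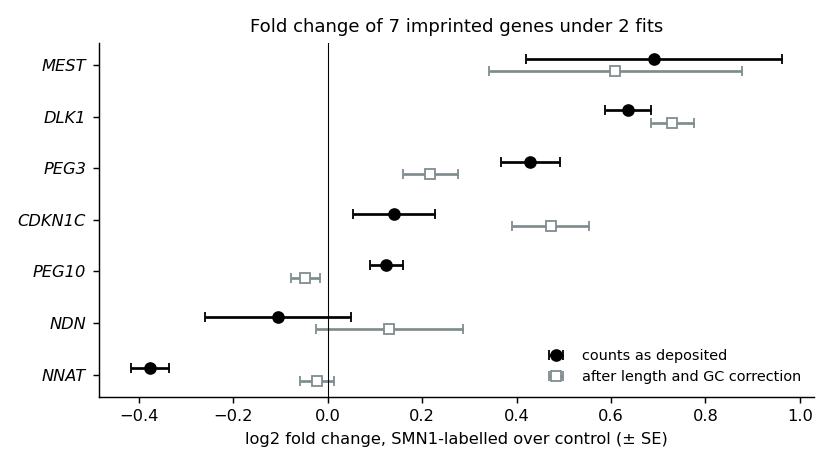
Log2 fold change, SMN1-labelled over control, with SE for 7 imprinted genes from the counts as deposited (black) and after the length and GC correction (grey squares). NNAT moves to -0.02, PEG10 to -0.05 and CDKN1C to 0.47, while DLK1 stays at or above 0.64.

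Of 9 tested neighbours of CDKN1C at 11p15, 0 rose and 5 fell, while 28.2% of all genes tested were lower. With the length and GC correction 0 rose and 2 fell, while 22.5% of all genes were lower. CARS1, a cysteinyl-tRNA synthetase gene, was at 136.6 ± 3.49 CPM against 182.8 ± 3.26 CPM (log2 fold change -0.42, edgeR adjusted p = 4.45e-10; -0.43 with the length and GC correction). OSBPL5, a lipid-transfer gene imprinted in placenta, fell by 0.83 (edgeR adjusted p = 1.68e-04). TSSC4 fell by 0.39 (edgeR adjusted p = 2.99e-07), which became -0.05 (edgeR adjusted p = 0.362) with the correction. KCNQ1, a potassium channel gene, fell by 0.29 (edgeR adjusted p = 0.00566) and likewise did not pass with it (-0.08, edgeR adjusted p = 0.451). PHLDA2, a maternal brake on placental growth, was called lower at 0.3041 ± 0.171 CPM against 0.8186 ± 0.45 CPM (log2 fold change -1.42, edgeR adjusted p = 0.00427), although its groups overlap, and it did not pass with the correction (edgeR adjusted p = 0.0523). KCNQ1OT1, the paternal non-coding RNA that silences the domain, was at 1.038 ± 0.346 CPM against 0.7354 ± 0.107 CPM and did not pass (edgeR adjusted p = 0.124).

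Over all 7 domains, 64 neighbours were listed, 43 had a row and 33 were tested. Of these 11 rose, 10 fell and 12 did not pass. Their median log2 fold change was 0.06, against 0.001 over all genes tested. After the length and GC correction 7 of 32 rose and 9 fell. The shares stand near those of the whole table in both fits. Without the correction, domains held neighbours called in either direction except at 11p15, 7q32 and 20q11, where none rose. With the correction none rose at these domains either, and none fell at 14q32.

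**Figure D5:**
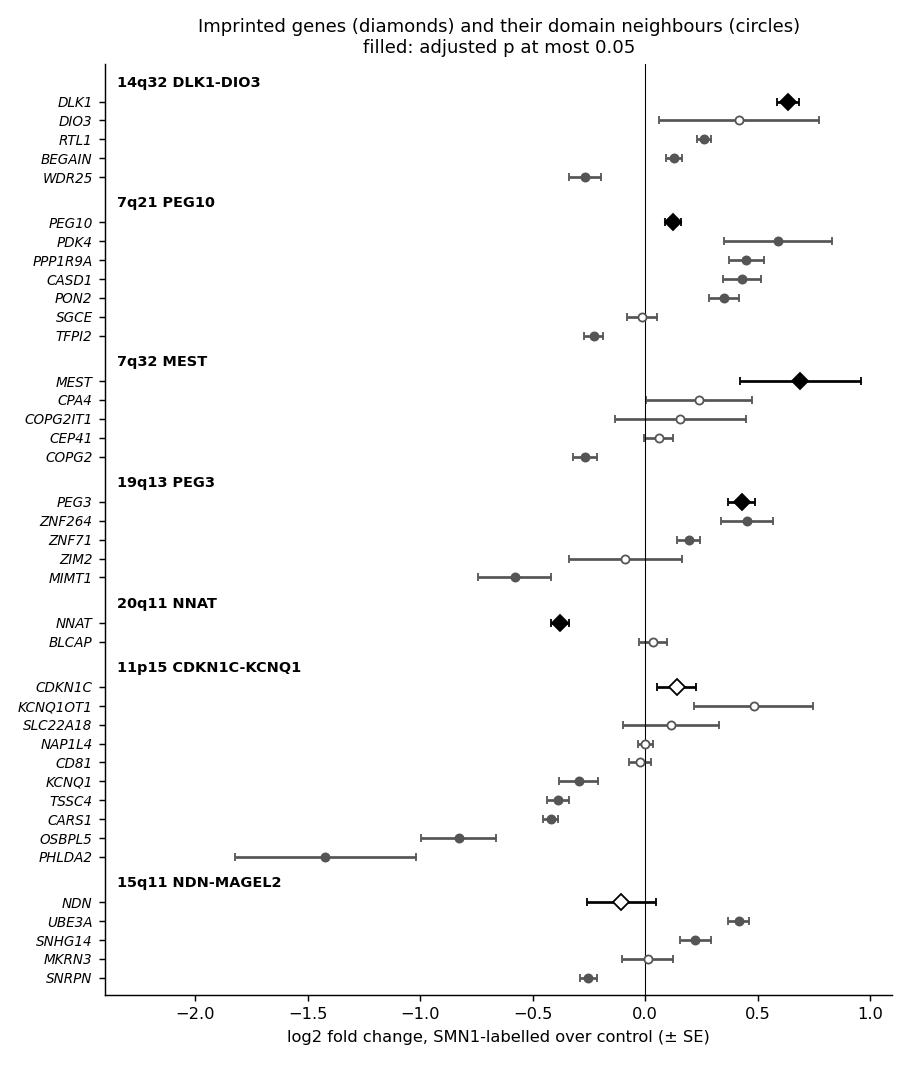
Log2 fold change, SMN1-labelled over control, with SE for the 7 tested imprinted genes (diamonds) and their tested neighbours (circles, 1 of 33 not drawn), grouped by domain, with filled symbols at an edgeR adjusted p of at most 0.05. Neighbours of DLK1, PEG10, PEG3 and NDN include filled symbols on both sides of 0, and those at 11p15 only on the left.

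Levels can be compared between these genes only per length. In FPKM, which divides reads by gene length and depth, DLK1 averaged 158.9 ± 15.7 in SMN1-labelled libraries and 96.17 ± 3.48 in control libraries, a level above 99.2% and 98.5% of the genes listed. NNAT averaged 82.97 ± 4.54 against 101.4 ± 1.75 FPKM. The order of this pair differed between the groups: DLK1 lay above NNAT in every SMN1-labelled library, while in the control libraries their ranges, 93.7 to 100.15 for DLK1 and 99.68 to 103.17 for NNAT, overlap. PEG10 followed at 29.4 ± 1.03 against 25.37 ± 0.286 FPKM. Below it CDKN1C stood at 6.22 ± 0.989 against 5.317 ± 0.388 FPKM, and PEG3 at 1.86 ± 0.101 against 1.30 ± 0.01 FPKM. NDN stood at 1.21 ± 0.208 against 1.21 ± 0.0794 FPKM, with a 6-library range that overlaps that of PEG3. MEST was lowest, at 0.1667 ± 0.0153 against 0.09667 ± 0.0153 FPKM, and MEG3 and MEG8 had no FPKM value.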

How the data were processed

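Total RNA from SH-SY5Y cells was made into stranded mRNA libraries and sequenced on an Illumina instrument, per the labels' protocols. The submitters' processing notes name GRCh38, HISAT2 and DESeq2, without versions. No source used here gives the counter, the annotation release or the strand setting, so overlapping, antisense and near-identical genes are uncertain. Counts in the deposited table are the authors' whole reads per gene, not normalized. The deposited FPKM table holds the authors' values per length and depth, rounded to 2 decimals.

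Libraries were grouped by title and matched to columns by name. The whole count table was tested with edgeR 4.0.16 in R 4.3.3, with TMM factors, the filterByExpr filter (a count minimum of 10), a quasi-likelihood fit on the group alone, two-sided testing, and adjustment by Benjamini-Hochberg over all 15829 genes. Calls are at an adjusted p of at most 0.05, and each standard error was taken as the size of the log2 fold change divided by root F. Totals of 30379242 to 40275498 reads set the precision. The 3 reads that a count of 0 allows at 95% are per group in the text on MEG8. Chi-square per degree of freedom was 2.41 to 4.12 for libraries of the same group, above counting noise, and 54.3 to 61.8 across groups. No pair was therefore treated as a library deposited a second time, which does not show that cultures were independent.

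Lengths, GC content and coordinates are from GENCODE v29 on GRCh38, with values for 15663 of the genes tested. The length and GC correction fits splines within each library and enters edgeR as offsets. Sequences are from RefSeq on GRCh38.p14, where 4 of the 10 genes had promoter windows. Of 222 list entries 187 matched a row.

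The 10 genes, the domain neighbours, the other lists and the tests were chosen with earlier results of these data known. Every one of the 10 genes with a row is named, any tested neighbour could be named (1 is counted but not reported here), and up to 4 called genes of each other list are named in order of p. Ratios of MEG8 to MEG3, of DLK1 to MEG3 and of MAGEL2 to NDN were planned and not computed, for want of FPKM values. The DLK1 to RTL1 ratio and the microRNA genes were added after seeing the data. The 19 alternatives were DESeq2 size factors, upper-quartile factors, DESeq2 1.42.0, limma-voom (limma 3.58.1), no filter, a minimum of 1 CPM in 3 or more libraries, a block for the replicate number, the length and GC correction with and without that block, limma on log2(FPKM + 0.1) and log2(FPKM + 1) with a minimum of 0.5 FPKM, the last also unfiltered, leaving out each library, and counts without ribosomal protein and mitochondrial genes. On simulated counts for 15647 genes, 194 of them changed, edgeR recovered 86.2% of genes changed 1.5-fold, 90.5% at 2-fold and 100% at 4-fold. It called 5 unchanged genes. The simulation changed far fewer genes than were called in the data and held no trend with GC content or length. Its rates therefore need not hold for these libraries.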

Additional observations from a re-analysis of the deposited data

How the results depend on the processing

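Over the 19 alternatives, 113 of the values of the 7 genes kept their direction and their side of the threshold, 9 lost the call, 3 gained it and 5 reversed, and for the 23 neighbours followed (those called, with SGCE and BLCAP) 386 values kept both, 30 lost the call, 2 gained it and 8 reversed. Between 3 and 4 of the 7 genes were called higher in every alternative. The number called lower was 1, except 0 with the length and GC correction and 0 with the replicate block and that correction. Leaving out each library gave 3 to 4 higher, 1 lower and 8021 to 8681 called genes in all, against 8892. DESeq2 called 7284 genes.

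PEG10 reversed with the length and GC correction (-0.048, and -0.048 with the block). NDN, not called in any fit, reversed in the same pair of fits (0.13 and 0.133) and without SMN1-labelled replicate 2 (0.049, in a range of -0.182 to 0.049 when each library was left out). SGCE, near 0, was called lower with the correction and reversed with no filter (0.009), on log2(FPKM + 0.1) (0.066), on log2(FPKM + 1) with and without a filter (0.03 and 0.03), without SMN1-labelled replicate 1 (0.019) and without control replicate 1 (0.029, in a range of -0.055 to 0.029 over the libraries). BLCAP reversed with the correction (-0.16, and -0.158 with the block). Beyond the corrected values given with each gene, the cause of these changes was not tested.

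Libraries with the same replicate number did not deviate together (correlations of 0.005, 0.013 and 0.003), so the numbers were not taken as pairs. With the replicate block, MEST also missed the threshold in the corrected fit (edgeR adjusted p = 0.0807). In the fit with the block alone, 8708 genes were called, with 4 of the 7 genes higher and 1 lower. Depth limits MEG3, MEG8 and MEST, which had at most 37 reads in a library.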

Other observations

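The lists below are set beside all genes tested, of which 28.0% were higher and 28.2% lower. With the length and GC correction these shares were 26.4% and 22.5%. Imprinted genes outside these domains moved in either direction. Of 28 tested, 6 rose and 8 fell, and the median was 0.06 on the log2 scale. With the length and GC correction 4 rose and 6 fell. ZFP90, a zinc-finger gene, rose (22.17 ± 0.846 CPM in SMN1-labelled libraries against 15.98 ± 0.906 CPM in control libraries; log2 fold change 0.47, edgeR adjusted p = 3.88e-07; 0.27 with the correction). FAM50B fell (-0.41, edgeR adjusted p = 1.52e-06), and with the length and GC correction it did not pass (-0.08, edgeR adjusted p = 0.199). DGCR6L and DGCR6, a near-identical pair at 22q11 between which reads can be split, were both called lower (-0.60 and -0.60, edgeR adjusted p = 2.14e-10 and 3.00e-06), at -0.18 and -0.43 with the correction.

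Of 18 genes that keep imprints or write and remove DNA methylation, 9 rose and 3 fell. With the length and GC correction 4 rose and 4 fell, shares near those of all genes in that fit. ZNF445, a zinc-finger protein that guards imprints in human cells, rose (46.55 ± 0.438 CPM against 36.11 ± 2.25 CPM; log2 fold change 0.37, edgeR adjusted p = 3.69e-07). TET3, which oxidises methylated cytosine, rose by 0.35 and YY1 by 0.25 (edgeR adjusted p = 3.51e-07 and 2.76e-05), at 0.35 and 0.17 with the correction. UHRF1, which brings the maintenance methyltransferase to DNA, fell (186.3 ± 8.04 CPM against 222.2 ± 7.45 CPM; log2 fold change -0.25, edgeR adjusted p = 3.78e-06; -0.17 with the correction).

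Of 17 genes derived from retrotransposon Gag, the family of PEG10 and RTL1, 4 rose and 7 fell, and 8 rose and 4 fell with the correction. RTL5 rose by as much as DLK1 (354.1 ± 5.31 CPM against 230 ± 6.89 CPM; log2 fold change 0.62, edgeR adjusted p = 4.39e-13). PNMA2 and PNMA8A rose by 0.50 and 0.37 (edgeR adjusted p = 2.17e-11 and 6.28e-09). RTL8A, whose near-identical copies could share its reads, was called lower (-0.67, edgeR adjusted p = 1.21e-09; -0.29 with the correction).

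Of 20 MAGE genes and partners of MAGEL2, 5 rose and 6 fell, and 4 rose and 4 fell with the correction. MAGEF1 fell (91.06 ± 4.52 CPM against 146.9 ± 3.88 CPM; log2 fold change -0.69, edgeR adjusted p = 7.79e-13; -0.43 with the correction). USP7, the deubiquitinase that binds MAGEL2, rose by 0.38 (edgeR adjusted p = 4.21e-09; 0.23 with the correction), and the retromer genes VPS26A and VPS35 by 0.44 and 0.32 (edgeR adjusted p = 3.96e-06 and 1.72e-07). VPS35 did not pass with the correction (0.08, edgeR adjusted p = 0.065). Among 6 paralogs of DLK1 and CDKN1C and calcium pump genes, 2 rose and 0 fell in the edgeR fit, and 1 fell when SMN1-labelled replicate 1 or control replicate 3 was left out. Those that rose were ATP2A2, the pump of the endoplasmic reticulum (log2 fold change 0.39, edgeR adjusted p = 9.64e-10), and CDKN1A, which encodes p21 (0.35, edgeR adjusted p = 2.26e-08; 0.60 with the correction).

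Within the SMN1-labelled group, replicate 1 was the highest library for DLK1, CDKN1C and NNAT, whose GC content is above 55%, and the lowest for PEG3 and PEG10, whose GC content is below 45%. Across 15663 genes its deviation from the group mean correlated with GC content at 0.305 (Spearman, across genes, which are not independent), against -0.152 and -0.187 for the other two replicates. Without replicate 1 the log2 fold change of DLK1 was 0.55, of PEG3 0.47, of NNAT -0.42 and of CDKN1C 0.04.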
